A study of Mus musculus with 8 samples.

Results

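Aminoacyl-tRNA synthetases are the enzymes that load each transfer RNA with its amino acid before translation. Their genes were followed here in macrophages taken from mouse skin wounds 3 days and 1 day after injury. The members were the genes whose symbol is a 1-letter amino acid code followed by "ars" with the usual suffixes, among them Eprs and Pars2, and they came to 38 of the 55414 genes in the count table. By gene symbol 21 encode the cytosolic enzymes and 17, with the suffix 2, the mitochondrial ones. Day 3 had 5 libraries (a to e) and day 1 had 3 libraries (a to c). Each library was bulk RNA-seq of cells that bound anti-F4/80 magnetic beads after enzymatic digestion of the wound bed, and each pooled 6 wounds from 3 mice. The protocol states 6 pools for each day, of which 5 and 3 were analysed here. No treatment or genotype other than the time after injury separates the groups, and the strain, sex and age of the mice are not given in the sources used here.

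Cytosolic synthetases serve the main ribosome pool, and mitochondrial synthetases charge the transfer RNAs used to translate the few proteins encoded by mitochondrial DNA. Several cytosolic synthetases are held together in the multisynthetase complex by scaffold proteins that are not themselves synthetases. When amino acids or charged transfer RNAs run short, the kinase GCN2 raises translation of the transcription factor ATF4, whose known targets include cytosolic synthetase genes. Of the members, 18 belong to class I and 19 to class II, the pair of unrelated catalytic folds of these enzymes. The bifunctional Eprs, which charges glutamate and proline, carries both folds.

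Total counts ran between 50515389 and 56661695 in day 3 libraries and between 41566151 and 60289310 in day 1 libraries, so that 3 counts corresponded to 0.05 to 0.0752 CPM (counts scaled to a common library size). Genes with a count numbered 14952 to 20557 in day 3 libraries and 23928 to 27315 in day 1 libraries. These ranges did not overlap, so for members near the level of 3 counts a difference between the days cannot be told apart from this difference between libraries. Mitochondrial transcripts took 0.868% to 1.95% of counts at day 3, against 2.38%, 1.23% and 0.501% in day 1 libraries a to c. The F4/80 gene Adgre1 averaged 1125 ± 76.0 CPM at day 3 and 820 ± 130 CPM at day 1 (SD, n = 5 and 3). All 8 macrophage markers were expressed, with a summed level of 22317 to 28892 CPM at day 3 and 12841 to 15664 CPM at day 1. Monocyte markers summed to 1351 to 2140 CPM at day 3 and 2785 to 3791 CPM at day 1, without overlap between the days. Fibroblast markers also did not overlap, at 55.6 to 118 CPM at day 3 and 9.45 to 37.6 CPM at day 1. Neutrophil markers varied within both days, between 444 and 3665 CPM at day 3, where library b was high, and between 822 and 3908 CPM at day 1, where library c was high. Dendritic cell markers summed to 28.0 to 136 CPM at day 3 and 77.3 to 184 CPM at day 1, and endothelial markers to 13.1 to 30.7 and 30.1 to 68.9 CPM. Markers of T and NK cells, B cells, mast cells, keratinocytes, red cells and muscle stayed at or below 27.6 CPM at day 3 and 11.1 CPM at day 1 in sum. The part of these cells in the synthetase values was not tested. In bulk RNA, fewer cells of a type and less RNA per cell cannot be told apart.

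Synthetase transcripts were expressed over a wide range, and the order of the genes was led by the enzymes for asparagine, arginine and aspartate. Levels are compared between genes per length, as RPKM, which divides CPM by the kilobases of annotated exon. Nars, the asparaginyl enzyme, was the most abundant member, at 100.02 ± 15.3 RPKM at day 3 and 107 ± 63.9 RPKM at day 1 (SD, n = 5 and 3). Rars, the cytosolic arginyl enzyme and a subunit of the multisynthetase complex, followed at 42.5 ± 6.54 RPKM at day 3 and 64.0 ± 23.1 RPKM at day 1. Dars, the aspartyl enzyme of the same complex, had 27.8 ± 4.97 RPKM at day 3 and 20.5 ± 4.67 RPKM at day 1. The next gene in order was mitochondrial: Rars2, the mitochondrial arginyl enzyme, reached 18.2 ± 2.18 RPKM at day 3 and 11.3 ± 2.71 RPKM at day 1. After it came Kars, Farsb, Hars, Gars and Eprs, whose means over the 8 libraries lay between 11.7 and 14.4 RPKM and differed among themselves by less than the day 1 SD of Kars (4.33 RPKM). Behind Rars2 the mitochondrial members were far lower, with Fars2 at 4.21 ± 1.51 RPKM at day 3 and 3.12 ± 0.63 RPKM at day 1, and Lars2 at 1.99 ± 0.61 RPKM at day 3 and 5.49 ± 3.30 RPKM at day 1. At the bottom, Ears2, Pars2, Aars2, Tarsl2, Vars2 and Mars2 averaged 0.18 to 0.27 RPKM over the 8 libraries.

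**Figure D1:**
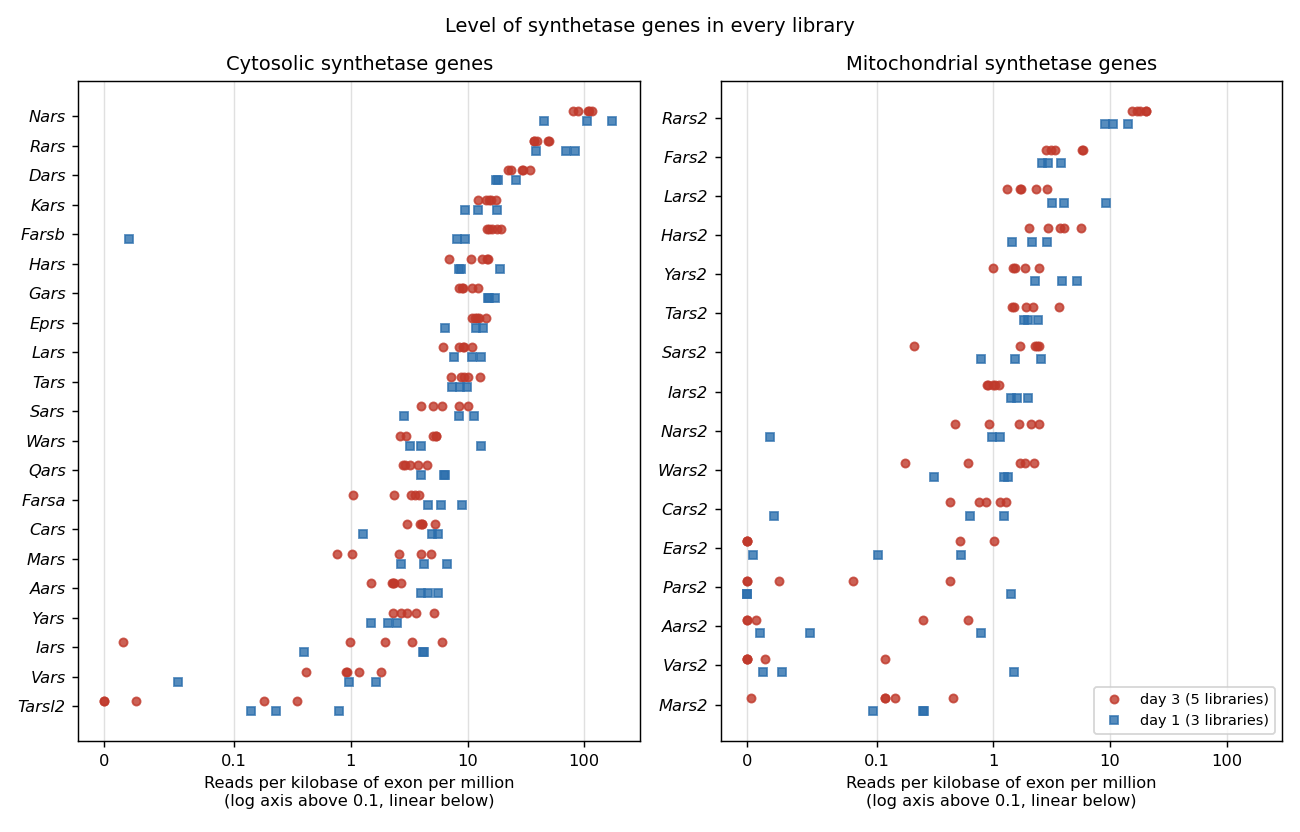
Level of 37 of the 38 synthetase genes in every library, in RPKM on a log axis that is linear below 0.1, with 5 day 3 libraries (circles) above 3 day 1 libraries (squares). Nars, Rars and Dars lead the cytosolic genes and Rars2 stands apart from the other mitochondrial genes, while Farsb, Nars2 and Cars2 have 1 day 1 library far to the left.

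The cytosolic enzyme was usually the more abundant of the pair that serves 1 amino acid. In 12 of 18 pairings of a cytosolic with a mitochondrial gene, the cytosolic level per length was higher in all 8 libraries. The ratio of the means was widest for asparagine among the well expressed pairs, where Nars exceeded Nars2 by 65.5-fold at day 3 and 151-fold at day 1. Without day 1 library a, in which Nars2 was near 0, the day 1 ratio was 70.8. It was narrow for tyrosine, at 2.02 for Yars over Yars2 at day 3 and 0.534 at day 1, and for Farsa over Fars2, at 0.666 at day 3 and 2.09 at day 1. Of the 17 pairings in which both genes could be tested, 7 had fold changes of opposite sign between the days.

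Aars, the alanyl enzyme, and Lars2, the mitochondrial leucyl enzyme, were lower and Rars2 was higher in every day 3 library than in any day 1 library, but no member passed an adjusted p of 0.05 in edgeR, while DESeq2 called Aars and Lars2 and limma voom called Aars. The comparison asks how synthetase transcripts of macrophages differed between the later and the earlier wound, and it was made with edgeR's quasi-likelihood test on all 15371 genes that passed the filter on low counts, with Benjamini-Hochberg adjustment. All 21 cytosolic genes and 16 of the 17 mitochondrial genes were tested, Vars2 being too low. In that test 0 of 37 members were called, against a background of 2 genes or 0.0130% of all genes tested. At an adjusted p under 0.1, 2 members passed (Aars and Lars2, 5.41%), against 4.77% of all genes. At an unadjusted p under 0.05, 8 members passed (21.6%), against 15.8% of all genes. Of these 7 were lower at day 3 (18.9%, against 10.6% of all genes), namely Aars, Farsa, Gars, Qars, Rars, Lars2 and Yars2. Rars2 was the 1 member higher at day 3 (2.7%, against 5.12% of all genes). The share at an adjusted p under 0.1 lay near the background, and no test of the group as a whole was made. The other tools gave 2 calls with DESeq2 (Aars and Lars2, against 6.77% of all genes), 1 with limma voom (Aars, against 5.41%), 0 with a stricter filter on low counts (7 of 32 at an unadjusted p under 0.05, against 1.79% called and 20.6% unadjusted) and 2 with no filter (Farsb and Lars2, against 3.50%).

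Ranges of the 5 day 3 and 3 day 1 libraries did not overlap in 7 of the 37 tested members (18.9%, against 14.1% of all genes). Aars, Farsa, Gars, Iars2 and Lars2 lay lower at day 3 (8.84% of all genes did), and Farsb and Rars2 lay higher (5.22% of all genes did). None of the 8 complex members was among them. The median log2 fold change, day 3 minus day 1, was -0.17 over the cytosolic members, with 9 above 0 and 12 below. Over the mitochondrial members it was 0.15, with 10 above 0 and 6 below, and over all genes tested it was -0.17, with 42.7% above 0. The median of all genes varied with level, from -0.73 at an average log2 CPM under 0 and -0.31 at 0 to 2. It was -0.13 at 2 to 4, -0.06 at 4 to 6 and -0.05 above 6. Members numbered 12, 15 and 5 in the bands 2 to 4, 4 to 6 and above 6. The value of -0.17 for all genes is therefore not a background of like level. The 8 complex members had a median of -0.25, the other 13 cytosolic genes -0.10, class I genes -0.25 and class II genes 0.05.

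**Figure D2:**
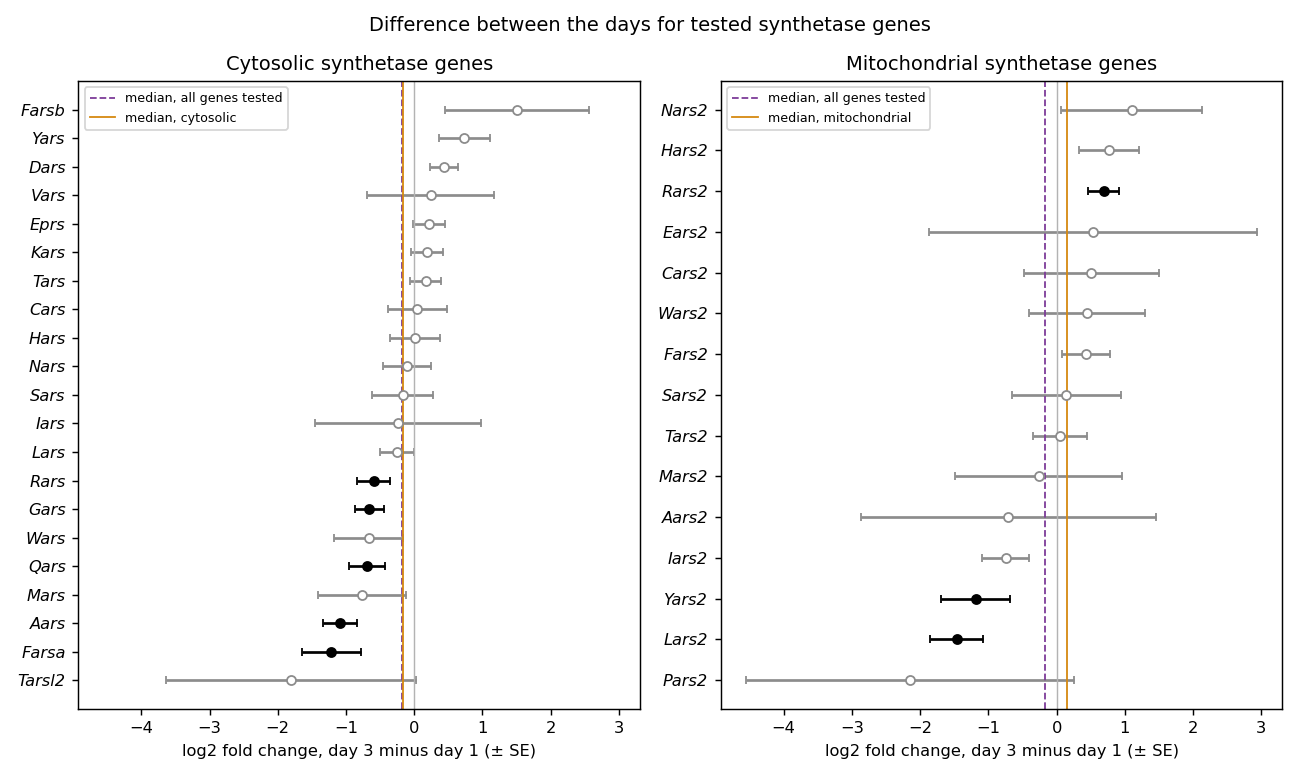
Log2 fold change, day 3 minus day 1, with its standard error for 36 of the 37 tested members, cytosolic genes on the left and mitochondrial genes on the right; filled points have an unadjusted p under 0.05, the dashed line is the median of all genes tested and the solid orange line that of the compartment. The filled points are Rars, Gars, Qars, Aars and Farsa below 0 among cytosolic genes, and Rars2 above 0 with Yars2 and Lars2 below 0 among mitochondrial genes.

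Among the cytosolic enzymes, the alanyl synthetase gene Aars (chromosome 8, 111759776 to 111784296, plus strand, GRCm39) had the lowest p of any member. It had 13.9, 21.1, 21.9, 21.1 and 24.96 CPM in day 3 libraries a to e, against 42.5, 37.3 and 51.7 CPM in day 1 libraries a to c. Every day 3 library was lower than every day 1 library. The means were 20.6 ± 4.08 CPM at day 3 and 43.8 ± 7.30 CPM at day 1, and the log2 fold change was -1.09 ± 0.25 (SE), at an adjusted p of 0.0824 with edgeR. The adjusted p was 0.0042 with DESeq2 and 0.0321 with limma voom. With any 1 library left out the log2 fold change stayed between -1.20 and -0.96. Of the exon bases of Aars, 15.1% are shared with other annotated genes, chiefly Exosc6, so reads there could not be assigned to 1 gene.

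Gars, the glycyl enzyme whose gene supplies both compartments, lies on chromosome 6 (55014992 to 55056485, plus strand). It had 27.8, 38.6, 26.2, 28.3 and 34.2 CPM in day 3 libraries a to e, against 47.5, 53.2 and 46.4 CPM in day 1 libraries a to c. All day 3 values were again below all day 1 values, and at day 1 Gars had the smallest coefficient of variation of any member (7.52%). Its log2 fold change was -0.66 ± 0.21, with an edgeR unadjusted p of 0.0109 and an adjusted p of 0.153. Kars, the lysyl enzyme, is the other gene that supplies both compartments and belongs to the complex. Kars had 64.7, 55.0, 70.5, 78.2 and 68.5 CPM at day 3, against 42.1, 80.2 and 55.3 CPM at day 1. Its day 1 values enclosed all day 3 values, and the log2 fold change was 0.19 ± 0.23.

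Aars and Gars were also the members of lowest p whose promoter holds the sequence TGATGNAA, the C/EBP-ATF composite element through which ATF4 is known to act. The search covered both strands of 300 bases, 250 before and 50 after the annotated start, in the RefSeq promoters of build GRCm38.p6, which is not the build of the counts. It was found in 5 of 28 members with a promoter (17.9%), against 1304 of 32851 promoters (3.97%). Cars, Hars, Hars2, Lars, Nars, Pars2, Rars, Vars and Wars were among those with no entry. All 5 were cytosolic (of 14), and 0 of 14 mitochondrial promoters held it. The stretches around it are shown for the 4 members of lowest p because such elements are known as the sites through which this response acts, although a match in letters is a description and not a measured site. Capitals mark the element, in Aars a pair of them, with -112 and 10 as their first bases from the start, -30 in Gars, 4 in Yars and -15 in Tars.
Aars (chr8:111033705-111033883, plus strand): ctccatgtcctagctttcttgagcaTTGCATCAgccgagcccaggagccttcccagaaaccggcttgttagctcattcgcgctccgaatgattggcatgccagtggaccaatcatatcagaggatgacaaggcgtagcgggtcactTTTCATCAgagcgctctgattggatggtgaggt
Gars (chr6:55037946-55038003, plus strand): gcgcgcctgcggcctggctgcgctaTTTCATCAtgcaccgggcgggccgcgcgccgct
Yars (chr4:129189881-129189938, plus strand): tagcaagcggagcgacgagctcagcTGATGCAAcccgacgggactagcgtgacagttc
Tars (chr15:11399641-11399698, minus strand): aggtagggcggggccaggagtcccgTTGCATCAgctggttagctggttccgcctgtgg
In Aars, Gars and Tars the element reads on the strand opposite to the gene, and in Yars on the same strand. The fifth was Iars, the isoleucyl enzyme.

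The members with this element did not share a direction. Aars and Gars were lower at day 3 in every library, as given above. Yars, the tyrosyl enzyme, differed by 0.74 ± 0.37 on the log2 scale (edgeR adjusted p = 0.388), and its 30.9, 15.99, 18.05, 13.7 and 21.5 CPM at day 3 overlapped the 8.92, 14.7 and 12.4 CPM at day 1. Tars, the threonyl enzyme, had 0.17 ± 0.22. Iars had -0.24 ± 1.22, and its library values ran between 0.0764 and 31.98 CPM at day 3 and between 2.11 and 22.2 CPM at day 1.

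The subunits of the cytosolic phenylalanyl enzyme, a tetramer of the catalytic Farsa and of Farsb, went opposite ways in the means. Farsa (chromosome 8, 85583618 to 85595886, plus strand) had 14.8, 4.71, 10.7, 17.5 and 15.97 CPM at day 3, against 20.9, 27.1 and 40.8 CPM at day 1. Every day 3 library was lower, and the log2 fold change was -1.21 ± 0.44 (edgeR adjusted p = 0.204). Farsb (chromosome 1, 78394612 to 78465534, minus strand) had 38.6, 47.1, 40.0, 42.8 and 50.7 CPM at day 3, against 0.0501, 21.3 and 24.8 CPM at day 1. Every day 3 library was higher, and day 1 library a lay under the level of 3 counts in that library (0.0752 CPM). The fitted log2 fold change of Farsb was 1.51 ± 1.06 with an edgeR adjusted p of 0.560, and 0.91 without day 1 library a. Per length, the log2 ratio of Farsb to Farsa was 2.18, 4.12, 2.70, 2.08 and 2.46 at day 3, against 0.44 and 0.07 in day 1 libraries b and c. This ratio was chosen after the values were seen. Farsb shares 9.47% of its exon bases with Sgpp2 on the other strand, and Farsa shares none.

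Within the multisynthetase complex, the glutaminyl enzyme Qars and the arginyl enzyme Rars had the lowest p. Qars (chromosome 9, 108384905 to 108393140, plus strand) had 21.0, 19.0, 24.5, 29.8 and 18.4 CPM at day 3, against 26.1, 41.0 and 42.1 CPM at day 1. The days overlapped only through day 3 library d and day 1 library a, and the log2 fold change was -0.69 ± 0.27 (edgeR unadjusted p = 0.0293, adjusted p = 0.248). Rars (chromosome 11, 35699208 to 35725333, minus strand) had 158, 161, 128, 119 and 119 CPM at day 3, against 269, 227 and 124 CPM at day 1. Day 1 library c lay inside the day 3 range. The log2 fold change of Rars was -0.59 ± 0.25 (edgeR unadjusted p = 0.0376, adjusted p = 0.279), and -0.36 without day 1 library a.

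Dars had 149.8, 96.7, 129.9, 127 and 103 CPM at day 3, against 113, 76.1 and 79.5 CPM at day 1. Most day 3 libraries lay above the day 1 range, but libraries b and e did not, and the log2 fold change was 0.44 ± 0.21 (edgeR adjusted p = 0.359). The other complex members, Eprs, Iars, Lars and Mars, overlapped between the days, with log2 fold changes between -0.77 (Mars, the methionyl enzyme) and 0.21 (Eprs). The summed level per length of the 8 complex genes was 115 ± 6.28 RPKM at day 3 and 132 ± 29.9 RPKM at day 1, which overlapped.

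Nars, the most abundant member, had 508, 474, 465, 349 and 382 CPM at day 3, against 752, 455 and 196 CPM at day 1. The day 3 libraries all lay within the day 1 range, with a log2 fold change of -0.10 ± 0.35. Without Nars, a sum chosen after the values were seen, the summed level per length of the other cytosolic genes was 194, 178, 187, 191 and 191 RPKM at day 3, against 212, 211 and 197 RPKM at day 1, without overlap. With Nars the sum was 288 ± 15.4 RPKM at day 3 and 314 ± 71.4 RPKM at day 1, and the days overlapped. Nars made up 34.6% ± 3.76 of the cytosolic sum at day 3 and 32.2% ± 13.2 at day 1.

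Wars, the tryptophanyl enzyme and an interferon-γ-induced gene in human cells, had 10.2, 18.5, 9.08, 17.3 and 18.7 CPM at day 3, against 11.1, 13.7 and 45.2 CPM at day 1. Only day 1 library c lay above the day 3 range. The log2 fold change was -0.66 ± 0.50 (edgeR adjusted p = 0.601), and 0.24 without that library. Tarsl2, a second threonyl enzyme gene, had the lowest log2 fold change of the cytosolic members, -1.80 ± 1.84, from 0, 0.162, 2.32, 1.22 and 0 CPM at day 3, against 5.29, 1.55 and 0.934 CPM at day 1. Without day 1 library a it was -0.77, no longer below Farsa, and without day 3 library c it was -2.89. The remaining cytosolic genes Cars, Hars, Sars and Vars had log2 fold changes between -0.17 and 0.24, each with a standard error larger than the change.

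**Figure D3:**
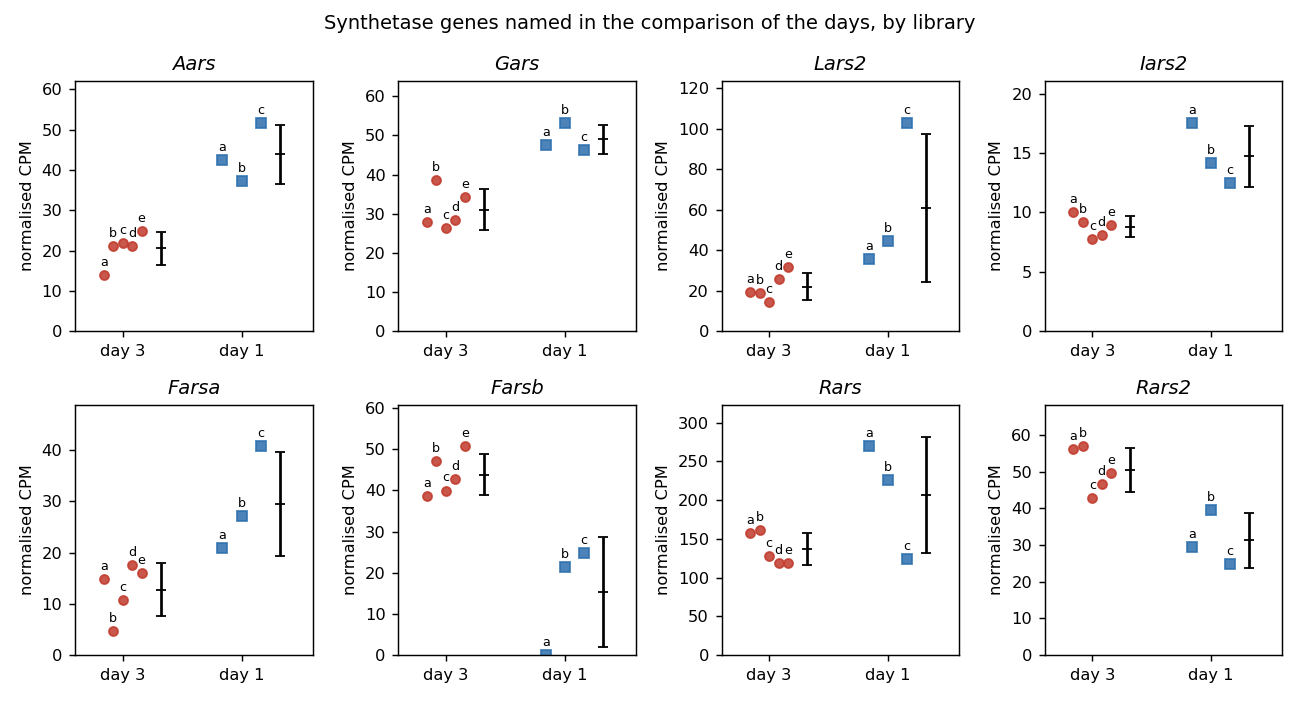
Normalised CPM of 8 synthetase genes in each library (letters), day 3 on the left and day 1 on the right of each panel, with the mean and SD beside the points (n = 5 and 3). Aars, Gars, Lars2, Iars2 and Farsa lie lower in every day 3 library and Farsb and Rars2 higher, while Rars overlaps through day 1 library c.

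Among the mitochondrial enzymes, the leucyl synthetase gene Lars2 (chromosome 9, 123195992 to 123291731, plus strand) had the lowest p. It had 19.3, 18.9, 14.5, 25.6 and 31.9 CPM at day 3, against 35.4, 44.4 and 103 CPM at day 1. All day 3 libraries lay below all day 1 libraries, and the spread at day 1 came mostly from library c. The log2 fold change was -1.47 ± 0.38 with an edgeR adjusted p of 0.0890, 0.0130 with DESeq2 and 0.0782 with limma voom. Without day 1 library c it was -0.86, and without day 1 library a it was -1.77. That library c also had the lowest mitochondrial share and the highest summed neutrophil markers of day 1 (3908 CPM), whose part in the Lars2 value was not tested. Its cytosolic partner Lars had -0.25 ± 0.24.

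Rars2 (chromosome 4, 34614957 to 34660167, plus strand) was the member with the lowest p on the higher side. It had 56.1, 56.9, 42.8, 46.7 and 49.6 CPM at day 3, against 29.4, 39.5 and 24.9 CPM at day 1. Every day 3 library was higher than every day 1 library, with a log2 fold change of 0.69 ± 0.22 (edgeR unadjusted p = 0.0121, adjusted p = 0.160). Both arginyl genes are free of exon overlap with other genes, and the balance between them is given as a description chosen after the values were seen. The log2 ratio of Rars to Rars2 per length was 1.27, 1.29, 1.36, 1.13 and 1.04 at day 3, against 2.98, 2.30 and 2.10 at day 1. The ratio was lower in all 5 day 3 libraries and varied less there (SD 0.130) than at day 1 (SD 0.460). A wider spread at day 1 was not particular to this pair. All genes tested had a median coefficient of variation of 45.2% at day 3 and 61.4% at day 1.

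Yars2, the mitochondrial tyrosyl enzyme (chromosome 16, 16120829 to 16127504, plus strand), had 4.64, 7.75, 3.13, 4.80 and 5.90 CPM at day 3, against 16.5, 7.15 and 12.1 CPM at day 1. Day 3 library b lay above day 1 library b, and the log2 fold change was -1.19 ± 0.51 (edgeR unadjusted p = 0.0425, adjusted p = 0.297). Iars2, the mitochondrial isoleucyl enzyme (chromosome 1, 185016923 to 185061593, minus strand), is named after its values were seen. It had 10.03, 9.17, 7.79, 8.06 and 8.91 CPM at day 3, against 17.5, 14.1 and 12.5 CPM at day 1. Its days did not overlap, it had the smallest coefficient of variation of any member at day 3 (10.2%), and the log2 fold change was -0.74 ± 0.35 (edgeR unadjusted p = 0.0586, adjusted p = 0.344). Iars2 shares 24.2% of its exon bases with other genes, mostly Rab3gap2 on the opposite strand.

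Fars2, the mitochondrial phenylalanyl enzyme, had 33.3, 34.0, 19.3, 18.1 and 16.4 CPM at day 3, against 16.9, 14.9 and 22.0 CPM at day 1, which overlapped (log2 fold change 0.43 ± 0.35). Nars2, the asparaginyl enzyme, had the highest log2 fold change of the mitochondrial members, 1.10 ± 1.03, from 11.6, 14.6, 17.2, 6.43 and 3.27 CPM at day 3, against 0.125, 6.78 and 7.93 CPM at day 1. This was 0.51 without day 1 library a. Pars2, the prolyl enzyme, had the lowest, -2.15 ± 2.40, and only day 1 library b, at 4.42 CPM, and day 3 library e, at 1.32 CPM, were above 0.254 CPM. The untested Vars2, the valyl enzyme, was at 8.15 CPM in day 1 library a and at or below 0.649 CPM in the others. The remaining mitochondrial genes named here overlapped between the days. Of these, Hars2, the histidyl enzyme, was at 0.77 ± 0.44, and Aars2, Cars2, Ears2, Mars2, Sars2, Tars2 and Wars2 lay between -0.71 and 0.53, each with a standard error larger than the change.

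Several of these fold changes rest on near-absent values in single libraries. In day 1 library a, Farsb, Cars2, Nars2, Aars2, Ears2 and Pars2 all had at most 0.150 CPM, although Farsb reached 21.3 and 24.8 CPM in day 1 libraries b and c. Iars was at 0.0764 CPM in day 3 library a and at 31.98 CPM in day 3 library e. Mitochondrial members had the wider spread between libraries, with a median coefficient of variation of 41.3% at day 3 and 57.0% at day 1. The cytosolic members had 20.9% at day 3 and 36.1% at day 1, and all tested genes 45.2% and 61.4%.

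The balance between compartments did not differ beyond the spread. Summed mitochondrial levels were 41.7 ± 3.81 RPKM at day 3 and 37.4 ± 4.72 RPKM at day 1. The log2 ratio of the summed cytosolic to the summed mitochondrial level was 2.80, 2.72, 3.03, 2.76 and 2.65 at day 3, against 3.57, 3.05 and 2.54 at day 1. The day 1 libraries enclosed the day 3 range, and the means differed by -0.26, a value that was 0.00086 without day 1 library a and -0.52 without day 1 library c.

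**Figure D4:**
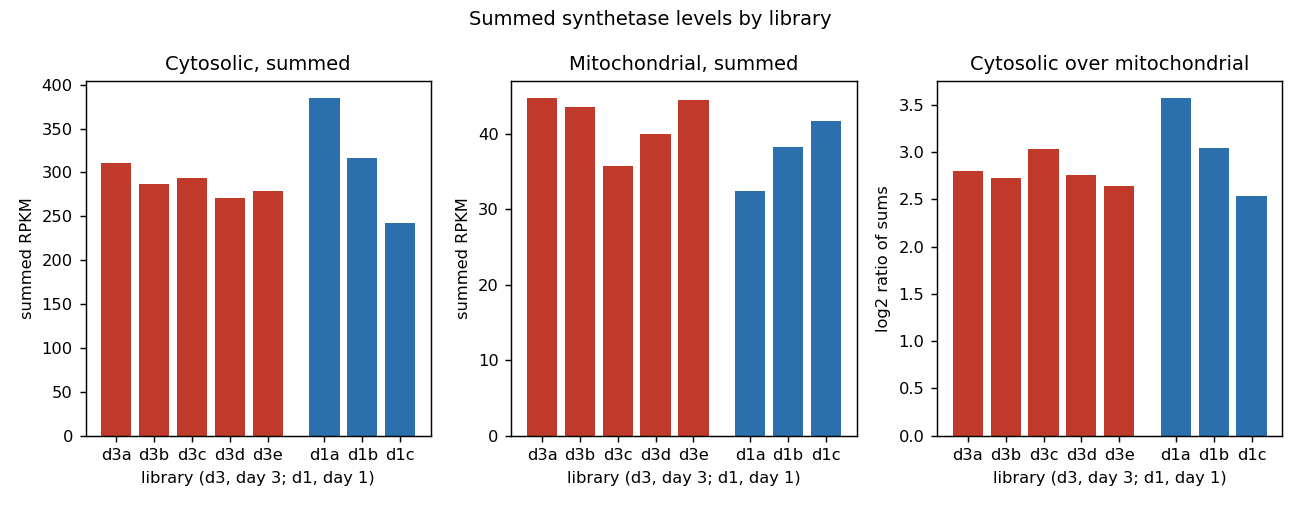
Summed level per length (RPKM) of the cytosolic genes, of the mitochondrial genes, and the log2 ratio of these sums, as 1 bar per library with day 3 (d3) on the left and day 1 (d1) on the right. The 5 day 3 ratios lie between 2.65 and 3.03, inside the day 1 range of 2.54 to 3.57.

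Genes that work beside the synthetases were counted by list, with the same test, and none was called; at an unadjusted p under 0.05, 15.8% of all genes passed. The scaffold genes of the multisynthetase complex gave 0 of 3 at an unadjusted p under 0.05, with a median log2 fold change of 0.50. Eef1e1, a scaffold subunit, averaged 35.1 ± 9.16 CPM at day 3 and 24.9 ± 5.88 CPM at day 1, and Aimp2, another, 16.1 ± 3.00 and 11.3 ± 3.10 CPM. The mitochondrial amidotransferase, which makes glutaminyl-tRNA in the absence of a mitochondrial glutaminyl synthetase, gave 1 of 3. This was its subunit gene Gatc, with 26.0, 12.7, 18.7, 19.4 and 26.4 CPM at day 3, against 8.72, 10.6 and 5.81 CPM at day 1. Its days did not overlap, and its log2 fold change was 1.30 ± 0.39 (edgeR adjusted p = 0.128). The other subunits, Gatb and Qrsl1, had 0.23 ± 0.46 and -0.0022 ± 1.16.

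Genes for special charging, formylation and editing gave 0 of 5 tested, with a median of 0.88. The most abundant were Dtd2, which removes D-amino acids from transfer RNA, at 14.3 ± 5.33 CPM at day 3 and 8.91 ± 7.72 CPM at day 1, and Mtfmt, the mitochondrial methionyl-tRNA formyltransferase, at 11.0 ± 5.24 and 7.85 ± 3.94 CPM. The lower day 1 mean of Dtd2 rests on library a, at 0 CPM, as libraries b and c had 13.2 and 13.5 CPM. Dtd1, another gene of this list, was also at 0 CPM in day 1 library a. Transfer RNA maturation and export genes gave 1 higher of 13, with a median of 0.30. That gene was Trnt1, which adds the terminal CCA to which amino acids are attached, at 74.2 ± 5.67 CPM at day 3 and 53.8 ± 10.7 CPM at day 1 (log2 fold change 0.46 ± 0.18, edgeR adjusted p = 0.252). Cytosolic elongation factors, which carry charged transfer RNA to the ribosome and move it through, gave 0 of 5, with a median of 0.08. Eef1a1 averaged 1113 ± 58.7 CPM at day 3 and 1124 ± 303 CPM at day 1, and Eef1g 164 ± 22.3 and 156 ± 34.0 CPM. Mitochondrial elongation factors gave 0 of 4, with a median of -0.78. Of these Tsfm averaged 11.2 ± 2.48 CPM at day 3 and 17.9 ± 5.62 CPM at day 1, and Gfm1 16.3 ± 6.87 and 23.1 ± 10.7 CPM.

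In the ATF4 arm of the amino acid response, 21 of 23 genes were tested, and their median was -0.53. The list holds genes at low level with wide errors, such as Trib3 at -1.91 ± 2.34 and Asns at 2.46 ± 1.68. The median of all genes was also lower at low level, as given above. The value of -0.53 was therefore not set against a background of like level. At an unadjusted p under 0.05, 2 of the 21 genes were higher at day 3 (5.12% of all genes were) and 1 was lower (10.6% of all genes were). Counts this small cannot be told apart from these shares, and no test of the list was made. Atf3, a stress-induced transcription factor, had 705, 814, 887, 1167 and 1053 CPM at day 3, against 459, 604 and 694 CPM at day 1 (log2 fold change 0.66 ± 0.21, edgeR adjusted p = 0.159). Nupr1, a stress-induced chromatin protein, had 0.70 ± 0.20 (edgeR adjusted p = 0.106), and both genes were higher in every day 3 library. Ddit4, an inhibitor of mTORC1, had 4.202, 16.2, 6.41, 11.8 and 7.15 CPM at day 3, against 11.3, 27.8 and 110.5 CPM at day 1. Its days overlapped, and on the log2 scale it differed by -2.45 ± 0.67 (edgeR adjusted p = 0.103), and by -1.11 without day 1 library c. Atf4, named because the promoter element is that of its product, had 91.7, 153.7, 91.0, 97.1 and 100.4 CPM at day 3, against 109, 105 and 183 CPM at day 1, with a log2 fold change of -0.31 ± 0.25.

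In the interferon-γ list, 13 of 14 genes were tested, with a median of -0.25, and 1 was higher and 3 were lower at day 3 at an unadjusted p under 0.05, where 5.12% of all genes were higher and 10.6% lower. Ifngr1, a receptor subunit, differed by 0.88 ± 0.21 on the log2 scale (edgeR adjusted p = 0.0824). Cxcl10, an interferon-induced chemokine, had -1.66 ± 0.40 (edgeR adjusted p = 0.0824), the transcription factor gene Irf1 -1.05 ± 0.35 (edgeR adjusted p = 0.174) and the GTPase gene Gbp2 -1.06 ± 0.34 (edgeR adjusted p = 0.151). Irf1 was at -0.40 without day 1 library c, and without day 1 library a Gbp2 was at -0.69. Irf1 had 128 CPM in day 1 library c, the library in which Wars also stood high.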

How the data were processed

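The data were whole-number counts of reads per gene, deposited by the authors as 1 table for 8 libraries. Per the file headers the counts were made with featureCounts 1.6.0 on annotation Ensembl release 106 of GRCm39, without options for strand, read pairs or multiple mapping. Per the submitters' processing notes, Trimmomatic and DESeq2 were also used, while no aligner is named in what was read here. Between 73% and 86% of the counts from 2 to 20 were even, as when both mates of a pair are counted. The 73% was that of day 1 library c, and every other library had 81.3% or more. A total of 52081 of 55414 genes (94%) received a symbol from the name table, which uses older symbols (Aars for Aars1, Wars for Wars1, Tarsl2 for Tars3).

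From the counts as deposited, edgeR 4.0.16 in R 4.3.3 fitted a quasi-likelihood model of day on all 8 libraries, with TMM scaling, full column totals as library sizes and filterByExpr (minimum count 10). Two-sided p-values were adjusted by Benjamini-Hochberg over all 15371 genes tested, and a gene was called at an adjusted p under 0.05. Fold changes are day 3 minus day 1 on the log2 scale, with SE from the F statistic. CPM used the TMM library sizes, and RPKM used the length of all annotated exons of a gene, so that long annotated exons lower it. Nothing in the labels says whether pools share mice, so p-values measure the spread between these pools. The letters a to c are shared by both days; the deviations of same-lettered libraries correlated by 0.0856, 0.0266 and 0.000486, so the letters were not taken as pairs.

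DESeq2 1.42.0, limma voom (3.58.1), other scalings, other filters, halved counts, a replicate block and leaving out libraries were tried as alternatives. The stricter filter asked for a mean of 5 CPM or more and for 1 CPM or more in all libraries of either day. The model was also run on simulated counts, drawn with the dispersions that edgeR fitted to these data. Counts drawn in this way cannot decide which tool's number of calls is right here. Counts of members with separate ranges under left-out libraries, counts at unadjusted p, and left-out values of partner genes and of the Nars pair, were added after seeing the data. The members and lists were chosen with earlier results of these data known. Values by library are given for members at an unadjusted p under 0.05, the 4 cytosolic and 3 mitochondrial genes of highest level, the extremes of fold change in each compartment, and Wars, Qars, Gars and Kars. Partner genes are named at an unadjusted p under 0.05, or else as the 2 most abundant of their list. Of the members, 1 mitochondrial gene enters every count, median and sum but is not reported singly here.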

Additional observations from a re-analysis of the deposited data

Results flagged for a closer look

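Among the 45 groups of 5 day 3 values examined (the synthetase genes and their sums), 2 had a library far from the others. Chance gives about 1 in 20 groups, so this number is no more than chance gives, and both genes lay near the level of 3 counts in most of the other day 3 libraries. Pars2, the mitochondrial prolyl enzyme, was at 1.32 CPM in day 3 library e and at 0 to 0.254 CPM in the other 4, a gap of 0.808 of the whole range against a critical value of 0.71. Vars2, the mitochondrial valyl enzyme, was at 0.649 CPM in day 3 library a and at 0 to 0.0757 CPM in the other 4, a gap of 0.883 of the range.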

How the results depend on the processing

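The number of genes called between the days, 2 at an adjusted p under 0.05, was the least stable value. It was 1041 with DESeq2, 831 with limma voom, 1347 with no filter on low counts, 146 with the stricter filter, 47 with halved counts, 25 without day 1 library a and day 3 library b together, 733 at an adjusted p under 0.1, and 0 to 31 with any 1 library left out. Synthetase genes called numbered 0 in edgeR, 2 with DESeq2, 1 with limma voom, 2 with no filter, 2 at an adjusted p under 0.1 and 0 in all leave-one-out fits; at an unadjusted p under 0.05 there were 8, with 5 to 8 when 1 library was left out. Leaving out libraries can only add separate ranges: they numbered 7 to 10 with 1 library left out (18.9% to 27.0% of members, against 16.3% to 24.4% of all genes) and 11 without day 1 library a and day 3 library b (29.7%, against 28.6%). Without day 1 library c the members, at 21.6%, lay below all genes, at 24.4%.

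The median of the cytosolic members (-0.17) was 0.035 with limma voom and -0.34 to 0.065 with 1 library left out, turning positive without day 1 library c. The median of the mitochondrial members (0.15) was -0.16 without day 1 library a and day 3 library b, and -0.085 to 0.55 with 1 library left out, turning negative without day 1 library a. With libraries a to c of each day and a replicate block, 0 genes were called, as without the block, and the cytosolic median was -0.37 with the block and -0.38 without it; in every case the letters are only shared names.

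For single genes, 20 of 36 kept their sign under each of the 18 alternatives in which they could be tested. The other 16 took both signs, and the cause was not tested. With 1 library left out, the log2 fold changes ran from -0.39 to 0.38 for Cars, -0.048 to 0.43 for Eprs, -0.20 to 0.51 for Hars, -0.89 to 0.11 for Iars, -0.019 to 0.46 for Kars, -0.47 to 0.42 for Nars, -0.56 to 0.25 for Sars, -0.32 to 1.06 for Vars, -1.03 to 0.24 for Wars, -2.14 to 2.51 for Aars2, -0.084 to 1.44 for Cars2, -0.70 to 2.46 for Ears2, -1.04 to 0.060 for Mars2, -2.75 to 7.09 for Pars2, -0.20 to 0.65 for Sars2 and -0.23 to 0.16 for Tars2. Limma voom gave 0.11 for Nars, 0.035 for Sars, -1.91 for Ears2 and -0.011 for Sars2. Without day 1 library a and day 3 library b the values were -0.37 for Cars, -0.020 for Hars, 0.39 for Nars and -1.27 for Ears2. With the replicate block they were -0.0026 for Hars, 0.26 for Nars, 2.39 for Aars2, -3.10 for Ears2, -0.61 for Sars2 and -0.27 for Tars2, and for libraries a to c without the block -0.042 for Hars, 0.074 for Nars, -0.18 for Sars2 and -0.25 for Tars2.

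Ears2, Pars2, Aars2, Tarsl2 and Vars2 had 3 counts or fewer in 2 to 4 of the libraries each, so their fold changes rest on few libraries. With 5 and 3 pools, no difference that misses the threshold shows equality of the days.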
